A study of Mus musculus with 24 samples.

Results

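A set of 37 genes of hepatic fatty acid oxidation was followed over 24 mouse livers with and without silencing of Keap1. The set was put together by gene function and holds PPAR alpha, genes known as its targets in the fasted liver, the enzymes of mitochondrial and peroxisomal beta-oxidation, and genes of ketone body metabolism. Each gene was read from the brightest probe set, by the mean over all arrays, that the platform annotation assigns to that gene alone. Of the 37 genes, 36 had such a probe set, out of 18193 genes in all. The remaining gene, Cyp4a10, shares its probe set with Cyp4a31 and was not analysed here.

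Liver RNA was hybridised to Affymetrix whole genome arrays with 1 array per mouse and 8 mice per siRNA. All mice were male C57BL6/J, 8 weeks old at the start, and took a high-fat diet with 6% sucrose in the drinking water (Western diet). For 7 weeks they received, each week by tail vein, 1 mg per kg of the scrambled siControl or of siKeap1-1 or siKeap1-2, both directed against Keap1, in lipid nanoparticles that reach mainly hepatocytes. The methods state that each siRNA group held 4 fed and 4 fasted mice, but the sample labels do not give the feeding state of an array, so it was not used and its part in the spread within groups was not tested. Values are log2 signals, in which a difference of 1 is a doubling, and 8 arrays per group set how precise a mean can be.

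Keap1 is the adaptor that holds the transcription factor Nrf2 at low levels, and its loss releases the antioxidant program of Nrf2. PPAR alpha is a nuclear receptor of hepatocytes that is activated by fatty acids during fasting. It binds DNA with the retinoid X receptor at direct repeats of the hexamer AGGTCA and raises the genes that carry fatty acids into mitochondria and peroxisomes, shorten them by beta-oxidation and turn the product into ketone bodies.

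Keap1 itself had signals of 9.33 to 10.03 in the siControl group, of 7.21 to 7.93 after siKeap1-1 and of 8.03 to 8.59 after siKeap1-2. The groups did not overlap, and the log2 differences against siControl were -2.13 and -1.36 (exact permutation test over all splits of the arrays, two-sided, p = 0.000155 for both, the smallest value this design can give, n = 8 arrays per group). The hepatocyte markers Alb and Apoa1 were bright on all arrays, at 14.72 or more and 15.02 or more. Adipoq and Lep, markers of adipocytes, stayed at or below 4.10 and 3.86, while Retn, also an adipocyte marker, lay between 4.52 and 5.65. Of 32 cell type markers tested with limma, Sox9 rose with both siRNAs (by 0.87 and 0.96), Retn rose and Vsig4 fell with siKeap1-1, and Marco rose with siKeap1-2. A control probe set on the array, for 18S ribosomal RNA, was higher with siKeap1-1 by 1.23 and with siKeap1-2 by 1.18 (exact permutation test, two-sided, p = 0.00435 and 0.00155). Within the siControl group it lay between 10.34 and 10.77 on replicates 1 to 3 and between 8.86 and 9.54 on replicates 4 to 8. With siKeap1-1, replicates 1 to 3 were the lower ones, at 10.17 to 10.44, and replicates 4 to 8 were at 11.17 to 11.43. The ranges of siControl and siKeap1-1 thus overlapped on replicates 1 to 3 and lay apart on replicates 4 to 8. All siKeap1-2 arrays were between 10.45 and 11.12. The part of the 18S signal in the results was not tested beyond the settings given below.

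The first question was whether silencing of Keap1 changed the expression of the oxidation genes. At an adjusted p under 0.05, limma called 1 gene of 36 with each siRNA, the same gene and lower with both. The call was not kept in every setting given below. This was Abcd2, which encodes a transporter that brings fatty acyl-CoA into peroxisomes. In whole liver RNA, less transcript per cell and fewer cells that express a gene cannot be told apart. By limma with adjustment over all tested probe sets, 0 members rose and 1 fell with siKeap1-1, where 4.82% of all genes rose and 4.67% fell. With siKeap1-2, 0 members rose and 1 fell, where 2.85% of all genes rose and 3.75% fell. At an unadjusted p under 0.05, limma gave 0 members higher and 11 lower with siKeap1-1 (12.5% and 12% of all genes), and 0 higher and 4 lower with siKeap1-2 (9.24% and 12.7%). The median log2 fold change of the 36 members was -0.08 with siKeap1-1 and -0.03 with siKeap1-2, and that of all genes was 0.01 and -0.01. Both comparisons use the same siControl arrays.

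**Figure D1:**
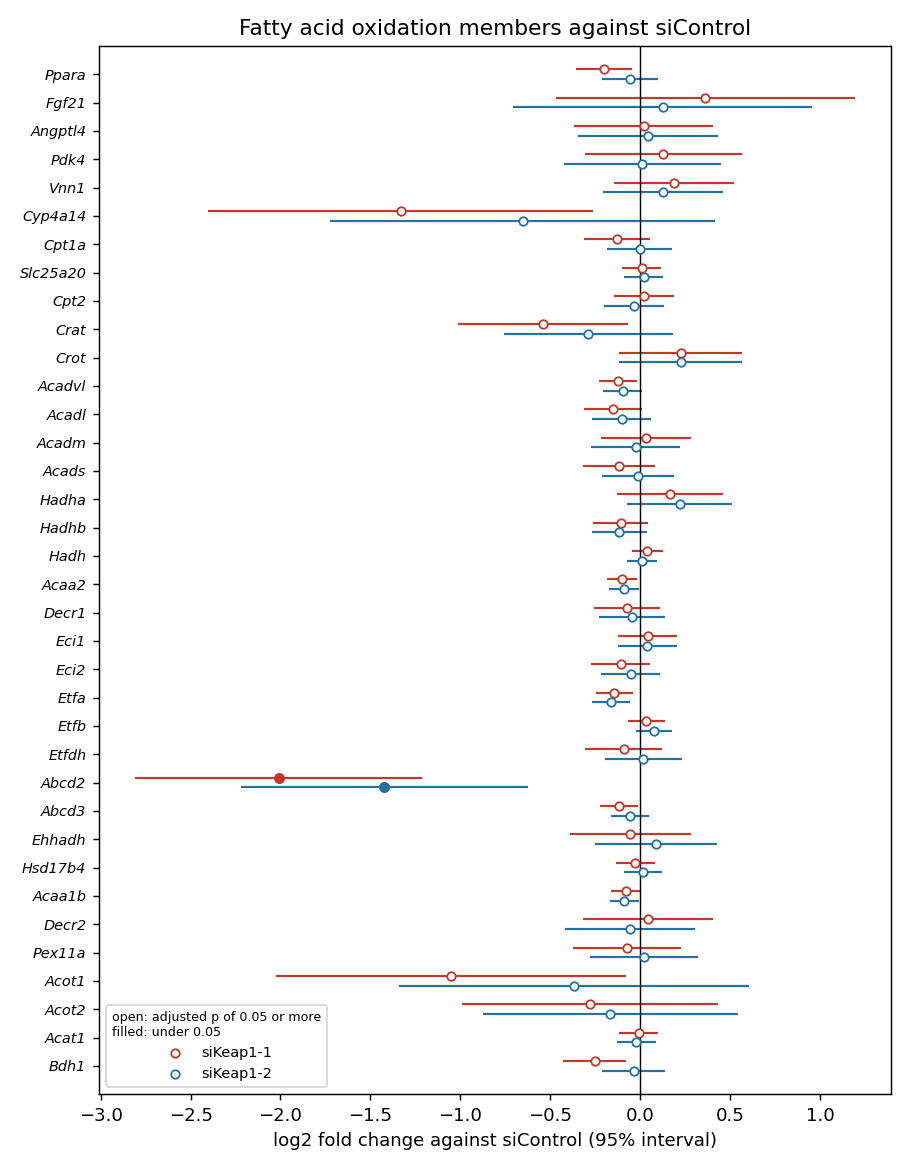
Log2 fold change of the 36 measured members (rows) against siControl with siKeap1-1 (red) and siKeap1-2 (blue), n = 8 arrays per group. Bars are 95% intervals from the limma fit and filled points mark an adjusted p under 0.05, which Abcd2 alone reached, at -2.01 and -1.42.

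The intervals bound the difference in signal for most members. In each of the 2 comparisons with siControl, the 95% interval of 30 members lay within a change of 1.5-fold in either direction. The intervals of Fgf21, Cyp4a14, Crat, Abcd2, Acot1 and Acot2 were wider or reached further.

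The largest fold change of the set was that of the peroxisomal gene Abcd2. Its signal ranged from 7.74 to 9.15 with siControl (median 8.65), from 5.37 to 7.56 with siKeap1-1 (median 6.58) and from 5.88 to 8.81 with siKeap1-2 (median 6.87). Every siKeap1-1 array was below every siControl array. In the siKeap1-2 group, replicates 1 and 5, at 8.81 and 8.75, stood within the siControl range, and the other 6 arrays were below its lowest value. The log2 fold change was -2.01 (SE 0.39, limma adjusted p = 0.00147) with siKeap1-1 and -1.42 (SE 0.39, adjusted p = 0.0283) with siKeap1-2.

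Abcd2 has 3 further probe sets. One with a mean signal of 6.21 gave -2.04 (limma adjusted p = 0.0044) and -1.38 (adjusted p = 0.0645) with siKeap1-1 and siKeap1-2. Another, at a mean of 6.17, gave -0.68 (adjusted p = 0.125) and -0.31 (adjusted p = 0.571). The dimmest, at a mean of 2.44, gave 0.00 and -0.11. The brightest probe set and the one at 6.21 thus gave values of like size. The one at 6.17, of nearly the same mean signal as that at 6.21, and the dimmest gave smaller ones. Without any single one of siKeap1-2 replicates 3, 4, 6 or 7 or siControl replicates 7 or 8, Abcd2 was no longer called with siKeap1-2 (adjusted p from 0.0546 to 0.0599), while its call with siKeap1-1 was kept without each array in turn (adjusted p at most 0.0042). When the controls were limited to siControl replicates 1 to 3, the fold changes of Abcd2 were -1.85 (adjusted p = 0.0838) and -1.26 (adjusted p = 0.402), and with the 18S signal as a covariate -1.87 (adjusted p = 0.0628) and -1.29 (adjusted p = 0.416), so that neither call was kept. With replicates 4 to 8 as controls they were -2.11 (adjusted p = 0.00444) and -1.52 (adjusted p = 0.0381). Of all genes, 0.77% and 0.154% were called lower with replicates 1 to 3 as controls, and 0.731% and 0.126% with the 18S covariate. The shares were 6.32% and 6.63% with replicates 4 to 8 as controls, and 4.67% and 3.75% with all arrays and no covariate.

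The other 6 peroxisomal members showed log2 fold changes of -0.12 to 0.04 after siKeap1-1 and of -0.09 to 0.09 after siKeap1-2. Abcd3, a related transporter of the peroxisomal membrane, was at -0.12 (limma adjusted p = 0.159) and -0.06 (adjusted p = 0.569). Ehhadh, the bifunctional enzyme of the peroxisomal spiral, was at -0.05 and 0.09, Hsd17b4, the other bifunctional enzyme, at -0.03 and 0.02, Decr2, a reductase for unsaturated chains, at 0.04 and -0.06, and Pex11a, a factor of peroxisome division, at -0.07 and 0.02.

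Acaa1b, a peroxisomal thiolase, combined a very small difference with a very small spread. Its signals were 14.83 to 14.92 in the siControl group, 14.72 to 14.82 after siKeap1-1 and 14.69 to 14.81 after siKeap1-2, so that all arrays of both siKeap1 groups were below all siControl arrays. The log2 fold changes were -0.08 (SE 0.04, limma adjusted p = 0.215) and -0.09 (SE 0.04, adjusted p = 0.194), beside a within-group SD of 0.037, the lowest of all members. Of the 36 members, 2 (Abcd2 and Acaa1b) with siKeap1-1 and 1 (Acaa1b) with siKeap1-2 did not overlap with siControl and were lower, where 0.594% and 0.467% of all genes did so. In the direction of higher values, 0 members did not overlap, where 1.12% and 0.94% of all genes did so.

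The regulator Ppara ranged from 11.67 to 12.08 with siControl (median 11.78), from 11.45 to 11.94 with siKeap1-1 (median 11.60) and from 11.46 to 11.94 with siKeap1-2 (median 11.80). With siKeap1-1, 7 of 8 arrays were below the lowest siControl value, and replicate 4 at 11.94 was not, whereas 6 of 8 siKeap1-2 arrays lay within the siControl range. The log2 fold change was -0.20 (SE 0.08, limma adjusted p = 0.0956) and -0.06 (SE 0.08, adjusted p = 0.723). The 2 dimmer probe sets of Ppara did not share this direction. One, at a mean signal of 9.04, gave 0.01 and 0.25 (adjusted p = 0.981 and 0.256), and the other, at a mean of 8.31, gave 0.27 and 0.56 (adjusted p = 0.427 and 0.0735), so the sign for Ppara depended on the probe set.

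The genes of the fasting response that PPAR alpha is known to raise did not pass the test either. Fgf21, a hormone of the fasted liver, ranged from 6.36 to 8.10 with siControl (median 6.83), from 6.08 to 9.63 with siKeap1-1 (median 6.91) and from 5.61 to 7.82 with siKeap1-2 (median 7.01), and the groups overlapped widely. Its fold change was 0.36 (SE 0.40, limma adjusted p = 0.653) and 0.13 (SE 0.40, adjusted p = 0.902). Pdk4, the kinase that turns off pyruvate dehydrogenase, was at 0.13 and 0.01, Angptl4, an inhibitor of lipoprotein lipase, at 0.02 and 0.04, and Vnn1, a pantetheinase, at 0.19 and 0.12.

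Cyp4a14, a cytochrome P450 of omega-oxidation, had the widest spread of all members. It ranged from 13.23 to 14.38 with siControl (median 13.60), from 9.66 to 13.86 with siKeap1-1 (median 12.73) and from 11.74 to 14.12 with siKeap1-2 (median 13.58). In the siKeap1-1 group, 4 arrays (replicates 1, 3, 6 and 8) were below every siControl array, as were 3 (replicates 4, 7 and 8) in the siKeap1-2 group, and the others lay within the siControl range. The fold change was -1.33 (SE 0.52, limma adjusted p = 0.114) and -0.65 (SE 0.52, adjusted p = 0.524).

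Both acyl-CoA thioesterases, which release free fatty acids from coenzyme A, also varied widely. Acot1, the cytosolic enzyme, ranged from 9.55 to 12.20 with siControl (median 10.25), from 8.14 to 11.10 with siKeap1-1 (median 9.68) and from 8.49 to 11.84 with siKeap1-2 (median 10.17). Here 4 siKeap1-1 arrays and 2 siKeap1-2 arrays were below the lowest siControl array. The fold change was -1.05 (SE 0.47, limma adjusted p = 0.178) and -0.37 (SE 0.47, adjusted p = 0.722). Acot2, the mitochondrial enzyme, ranged from 9.95 to 12.59 with siControl (median 11.38), from 10.08 to 11.87 with siKeap1-1 (median 11.23) and from 10.21 to 12.20 with siKeap1-2 (median 11.43). No array of either siKeap1 group was outside the siControl range, and the fold change was -0.28 (SE 0.34, adjusted p = 0.691) and -0.17 (SE 0.34, adjusted p = 0.838). Acot1 and Acot2 are close paralogs, and how far their probe sets tell them apart was not tested.

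**Figure D2:**
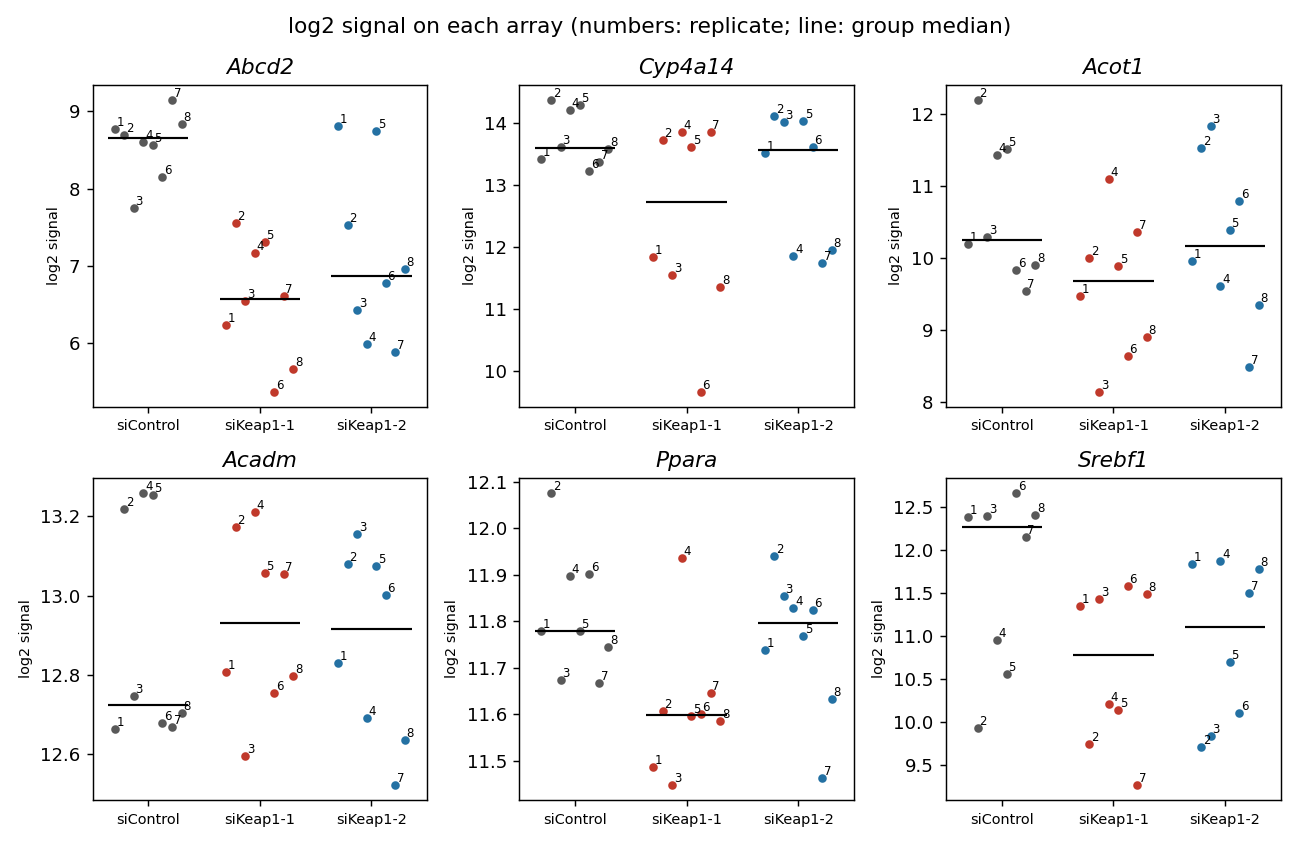
Log2 signal (vertical axis) of Abcd2, Cyp4a14, Acot1, Acadm, Ppara and, for comparison, Srebf1 on every array of the 3 siRNA groups, with the replicate number beside each point and a line at the group median. Abcd2 is lower in all 8 siKeap1-1 arrays, and Acadm splits siControl into 3 arrays at 13.22 or more and 5 at 12.75 or less.

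In the carnitine shuttle, which moves acyl groups across the mitochondrial membranes, the fold changes of 5 members were -0.54 to 0.23 after siKeap1-1 and -0.29 to 0.22 after siKeap1-2. Crat, the carnitine acetyltransferase, ranged from 10.48 to 11.82 with siControl (median 10.87), from 10.04 to 11.07 with siKeap1-1 (median 10.55) and from 9.95 to 11.47 with siKeap1-2 (median 10.96). It was below the lowest siControl array on 3 arrays of each siKeap1 group, with fold changes of -0.54 (SE 0.23, limma adjusted p = 0.148) and -0.29 (SE 0.23, adjusted p = 0.521). Cpt1a, the rate-limiting outer carnitine palmitoyltransferase, was at -0.13 and 0.00, the translocase Slc25a20 at 0.01 and 0.02, the inner palmitoyltransferase Cpt2 at 0.02 and -0.03, and Crot, which acts on chains shortened in peroxisomes, at 0.23 and 0.22.

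The mitochondrial spiral held 8 members, from the chain-length specific acyl-CoA dehydrogenases to the thiolase. Their fold changes were -0.15 to 0.16 after siKeap1-1 and -0.12 to 0.22 after siKeap1-2. Limma called 0 of 8 with each siRNA, where 9.49% and 6.60% of all genes were called in either direction. The dehydrogenases Acadvl, Acadl, Acadm and Acads were at -0.12, -0.15, 0.03 and -0.12 with siKeap1-1. Hadha and Hadhb, the subunits of the trifunctional protein, were at 0.16 and -0.11 with siKeap1-1 and at 0.22 and -0.12 with siKeap1-2. In the thiolase Acaa2, 7 of 8 arrays of each siKeap1 group were below the lowest siControl array of 14.17, with fold changes of -0.10 (SE 0.04, limma adjusted p = 0.111) and -0.09 (SE 0.04, adjusted p = 0.19). Hadh, the short chain dehydrogenase, was at 0.04 and 0.01. Decr1, Eci1 and Eci2, which act on unsaturated chains, were between -0.11 and 0.04 with siKeap1-1.

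Electrons from the dehydrogenases pass through the flavoprotein subunits Etfa and Etfb to Etfdh. Etfa came closest to the threshold among the members that were not called. It ranged from 13.23 to 13.37 with siControl (median 13.35), from 13.02 to 13.27 with siKeap1-1 (median 13.23) and from 13.05 to 13.27 with siKeap1-2 (median 13.19), so that 4 arrays of each siKeap1 group were below all siControl arrays. The fold change was -0.14 (SE 0.05, limma adjusted p = 0.0785) and -0.16 (SE 0.05, adjusted p = 0.0539). Its partner Etfb was at 0.03 and 0.08, and Etfdh at -0.09 and 0.02.

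For ketone bodies, the set held Acat1, which joins acetyl-CoA units, and Bdh1, which interconverts acetoacetate and beta-hydroxybutyrate. Acat1 was at -0.01 and -0.02. Bdh1 ranged from 12.31 to 12.71 with siControl (median 12.48), from 11.87 to 12.41 with siKeap1-1 (median 12.28) and from 12.11 to 12.63 with siKeap1-2 (median 12.44). With siKeap1-1, 5 of 8 arrays were below every siControl array, and the fold change was -0.25 (SE 0.08, adjusted p = 0.0594), against -0.04 (SE 0.08, adjusted p = 0.854) with siKeap1-2. A second, dimmer probe set of Bdh1 fell by 0.37 with siKeap1-1 (limma adjusted p = 0.0185) and was at 0.00 with siKeap1-2. Acaa1b, Acaa2, Etfa, Bdh1 and Acadm were singled out after their values were seen.

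The second question was whether the siRNAs differed from each other. Between siKeap1-1 and siKeap1-2, limma called 0 of 36 members in either direction, where 0.242% of all genes were called. At an unadjusted p under 0.05 the count was 0 higher and 1 lower (6.33% and 2.96% of all genes), the latter Bdh1 at -0.22 (adjusted p = 0.398). For Abcd2, siKeap1-1 was at -0.59 against siKeap1-2 (95% interval -1.38 to 0.21, adjusted p = 0.682), which leaves both a lower value and none within the interval. The 95% interval lay within a change of 1.5-fold for 30 of 36 members, with the same 6 exceptions as against siControl.

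Among 49 other measured genes of the same pathways, 3 rose and 1 fell with siKeap1-1, and 2 rose and 1 fell with siKeap1-2. Over both directions this was 8.16% and 6.12% of the list, near the 9.49% and 6.60% of all genes. Acox2, an oxidase of branched chains and bile acid intermediates, rose with both, by 0.57 (limma adjusted p = 0.000115) and 0.47 (adjusted p = 0.00167). With siKeap1-1, the nuclear receptor Pparg rose by 0.41 (adjusted p = 0.0326), the dehydrogenase Bdh2 rose by 0.71 (adjusted p = 0.0387), and the fatty aldehyde dehydrogenase Aldh3a2 fell by 0.30 (adjusted p = 0.0108). With siKeap1-2, Ucp3, a carrier of the inner mitochondrial membrane, rose by 0.23 (adjusted p = 0.0242), and Aacs, the cytosolic acetoacetyl-CoA synthetase, fell by 1.34 (adjusted p = 0.0266). Ucp3 was dim, between 4.93 and 5.56 over all arrays and so below the lowest array median of 5.84.

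The spread between mice of a group differed greatly within the set. The median within-group SD of the members was 0.177 on the log2 scale, close to 0.185 for all genes, but 9 of 36 members were in the upper 10% of all genes. These were Cyp4a14 at 1.12, Acot1 at 1.02, Fgf21 at 0.871, Abcd2 at 0.837, Acot2 at 0.744, Crat at 0.490, Pdk4 at 0.453, Angptl4 at 0.401 and Decr2 at 0.375. At the other end, Acaa1b, Acaa2 and Hadh were at 0.037, 0.044 and 0.049. These are among the brightest probe sets, with mean signals of 14.80, 14.14 and 14.50 beside 14.78 for Alb and 15.07 for Apoa1. Whether signals at this height are compressed was not tested, so their narrow intervals do not bound the change in transcript. The width of an interval is computed from the SD, so the members with wide intervals are by construction those with the largest SD. The plot sets the fold changes beside this spread.

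**Figure D3:**
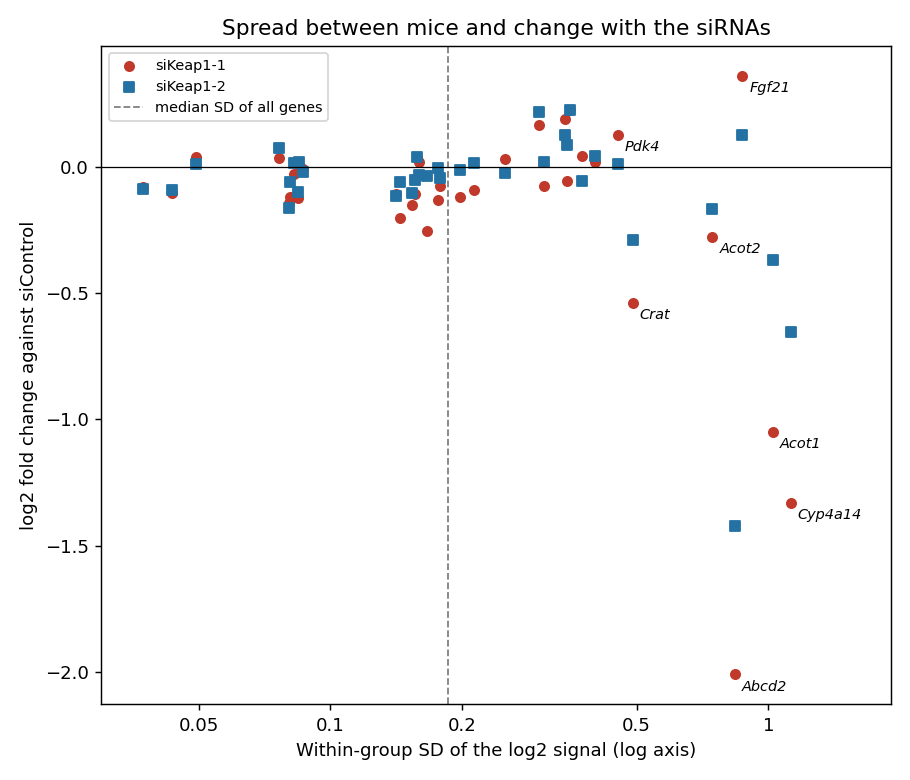
Log2 fold change against siControl (vertical axis) of the 36 members with siKeap1-1 (circles) and siKeap1-2 (squares) by their within-group SD (horizontal axis, log scale), with the median SD of all genes as a dashed line. Changes beyond 0.3 on the log2 scale lie at an SD over 0.45, and Abcd2 stands lowest.

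Part of this spread was shared, in that the same arrays were high for many members. Each group was cut at the largest gap between the values of Acadm, the medium chain dehydrogenase, so that every group is split by construction. Acadm was between 13.22 and 13.26 on siControl replicates 2, 4 and 5 and between 12.66 and 12.75 on the others. The 4 siKeap1-1 replicates 2, 4, 5 and 7 were between 13.05 and 13.21 and the others between 12.60 and 12.81, and the 4 siKeap1-2 replicates 2, 3, 5 and 6 were between 13.00 and 13.16 and the others between 12.52 and 12.83. The cut was less clear in the siKeap1-2 group, where it fell between 12.83 and 13.00 and the next lower array was at 12.69. These arrays were picked out by the value of a member, so the counts that follow are descriptions and carry no test.

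The siControl arrays that were highest for Acadm were highest for 23 of 36 members, where this held for 6.58% of all genes. In the siKeap1-1 group it held for 15 members (5.61% of all genes), and in the siKeap1-2 group for 17 members (4.73%). Each of these counts includes Acadm itself. In all 3 groups it held for 10 members, namely Vnn1, Cyp4a14, Cpt2, Crot, Acadm, Hadha, Decr1, Eci2, Etfdh and Acot1, and for 160 of 18193 genes (0.879%). For Crot, the siControl arrays 2, 4 and 5 were between 12.77 and 12.83 and the others between 11.77 and 12.14. These arrays were lowest for 0 members in any of the groups. Ppara, Fgf21, Pdk4, Hadh, Acaa2, Etfa, Abcd3, Acaa1b, Decr2 and Bdh1 showed the order of Acadm in 0 of 3 groups.

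**Figure D4:**
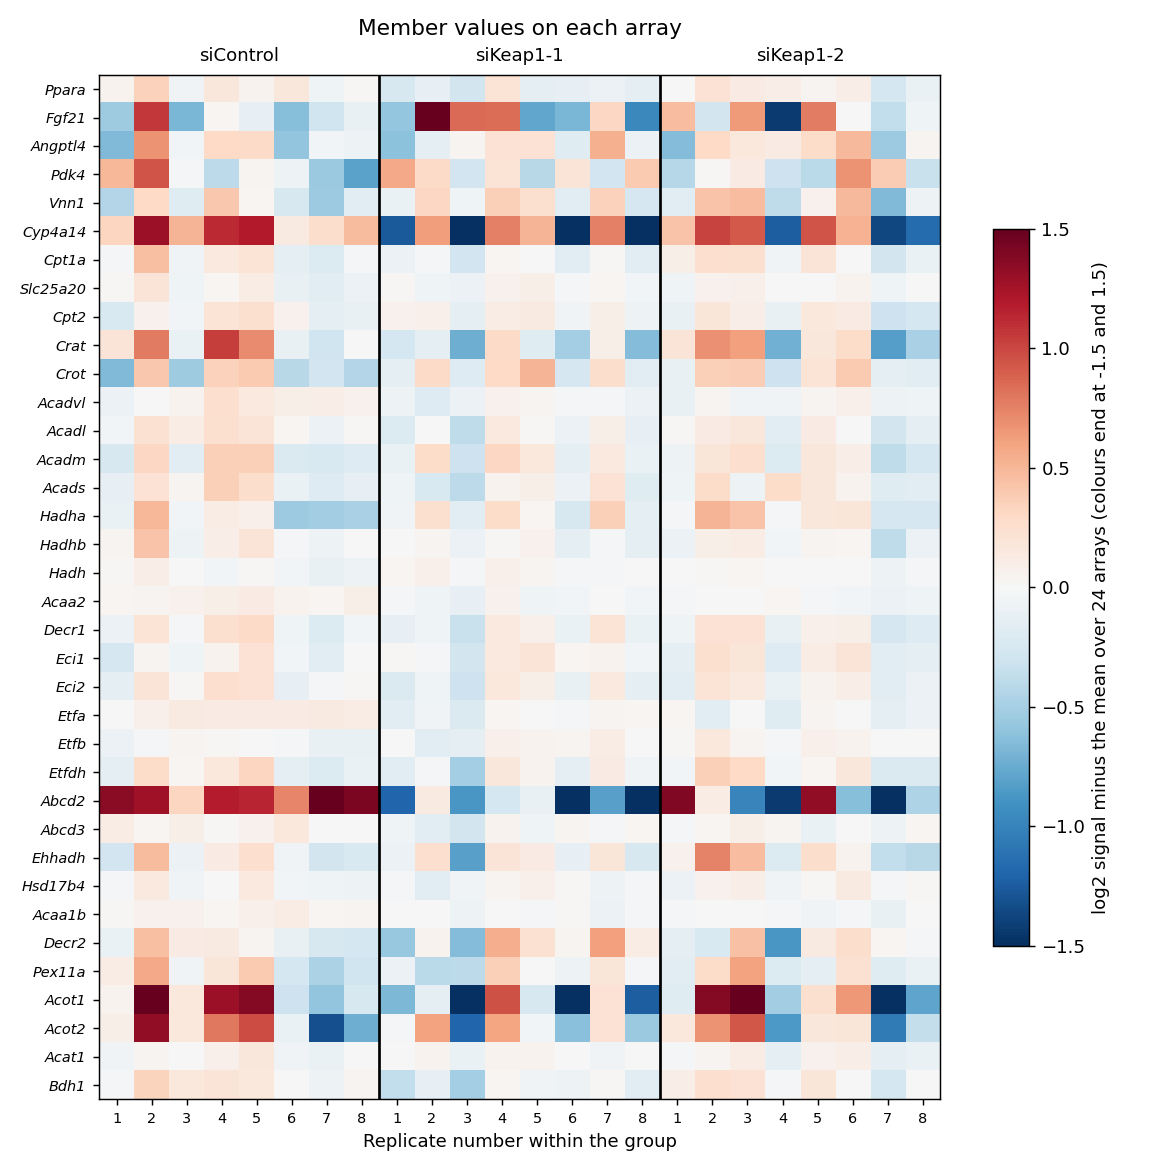
Log2 signal minus the mean over 24 arrays (colour, ends at -1.5 and 1.5) of the 36 members (rows, by role) on each array (columns, replicates 1 to 8 of each group). Red columns at siControl 2, 4 and 5, siKeap1-1 4 and siKeap1-2 2 and 3 run through most members, while Abcd2 is high throughout siControl.

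Counted over the whole set, 36 of 36 members were above their group median on siKeap1-1 replicate 4, 34 on siKeap1-2 replicate 3, and 33 on siControl replicate 5 and on siKeap1-2 replicate 2. At the low end, 2 members were above it on siKeap1-1 replicate 3 and on siKeap1-2 replicate 7, and 5 on siControl replicates 7 and 8 and on siKeap1-2 replicate 8. On these arrays, between 45.2% and 57.6% of all genes were above the median of their group.

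**Figure D5:**
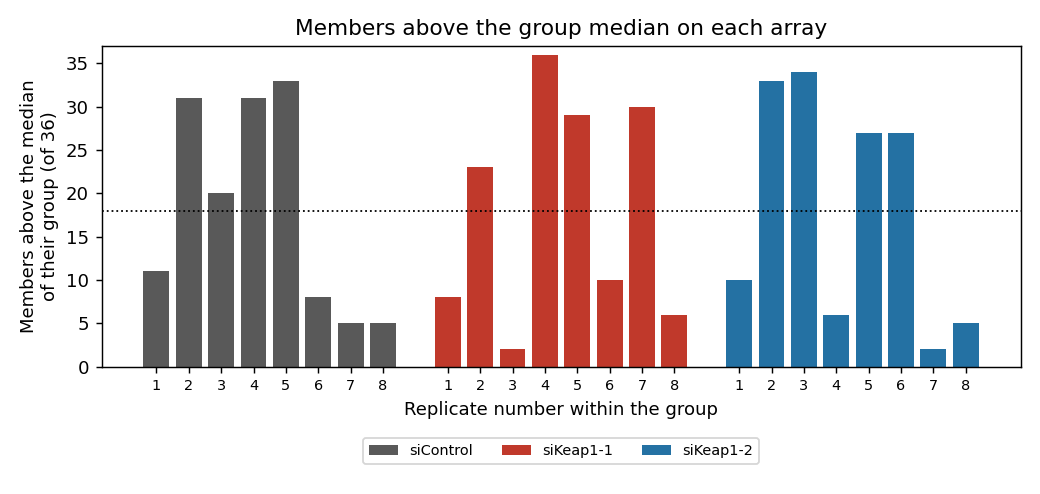
Number of the 36 members above the median of their own group (vertical axis) on each array, by replicate number within the group. The dotted line marks 18 members, and single arrays range from 2 to 36.

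Some genes known to respond to feeding showed the opposite order on the same arrays. Of 21 measured genes of this kind, 7 (Sesn3, Srebf1, Fasn, Acly, Thrsp, Elovl6 and Me1) were lowest on these arrays in all 3 groups, where this held for 92 of 18193 genes (0.506%). Fkbp5 was highest there in all 3 groups. Pck1 was highest there in both siKeap1 groups but not in siControl. G6pc, Ppargc1a, Tat and Lpin1 were lowest there in siControl but in neither siKeap1 group. Igfbp1 and Gadd45b were highest there in siControl alone, and Irs2 in siKeap1-2 alone. In siControl, siKeap1-1 and siKeap1-2, 14, 8 and 9 of the 21 genes were lowest there (4.9%, 3.83% and 4.19% of all genes). Those highest there numbered 3, 2 and 3 (6.58%, 5.61% and 4.73% of all genes). Srebf1, the regulator of lipogenesis, was between 9.93 and 10.95 on siControl replicates 2, 4 and 5 and between 12.15 and 12.66 on the others. Fasn, the fatty acid synthase, was between 11.05 and 11.61 on those arrays and between 12.83 and 13.33 on the others.

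The feeding response genes with the widest spread were Pnpla3, Fasn, Srebf1 and Asns, with within-group SDs of 1.26, 1.04, 0.966 and 0.906. Of the 21 genes, 0 rose and 3 fell with siKeap1-1, and 0 rose and 2 fell with siKeap1-2, where 4.67% and 3.75% of all genes fell and 4.82% and 2.85% rose. The lipase-like Pnpla3 fell with both, at -1.87 (limma adjusted p = 0.0432) and -1.93 (adjusted p = 0.0485), as did the elongase Elovl6 at -1.13 (adjusted p = 0.0165) and -1.01 (adjusted p = 0.0418). Ppargc1a, a coactivator of PPAR alpha, fell by 0.56 with siKeap1-1 (adjusted p = 0.00899) and was at -0.36 with siKeap1-2 (adjusted p = 0.113).

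The calls were computed again with the main axis of variation within groups (the first principal component of residuals, 16.9% of their variance), computed without the members and the lists, as a covariate. Limma then called 7 of 36 members lower with siKeap1-1, at unchanged fold changes, where 6.52% of all genes were called lower and 6.23% higher. These were Acot1 (adjusted p = 0.000245), Abcd2 (0.00066), Crat (0.00108), Cyp4a14 (0.00392), Bdh1 (0.00452), Ppara (0.0255, by its brightest probe set, whereas the others were at 0.27 and 0.01 without the covariate) and Acadl (0.0271), and 0 were called higher. With siKeap1-2, Abcd2 and Etfa were called lower (5.69% of all genes) and Hadha higher (adjusted p = 0.0465, 3.95% of all genes).

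Because many members moved together between mice, their promoters were searched for the PPAR alpha element and for the element of Nrf2. RefSeq (GRCm38.p6) windows of 300 bases, from 250 before to 50 after the start, were at hand for 27 members (29 windows). On either strand, the direct repeat of AGGTCA with any 1 base between its copies (DR1) was in 0 of 29 windows and in 0.0396% of 32851 windows of all genes. Only exact copies within these windows were sought. A repeat this rare cannot set 29 windows apart from the rest, so the 0 does not bear on the members. The single hexamer AGGTCA, which is contained in that repeat, was in 3 member windows (16.3% of all windows), those of Acadm, Acadvl and Cpt1a. The core of the antioxidant response element, TGACNNNGC, was in 1, that of Ehhadh (12.4% of all windows). Shown are the 250 bases before the start of these 4 genes, 5′ to 3′ on the strand of the gene, since they alone hold a match. Capitals mark the hexamer in Acadm, Acadvl and Cpt1a, on the opposite strand in Acadm and Cpt1a, and the antioxidant core in Ehhadh.
Acadm (chr3:153944644-153944893, - strand): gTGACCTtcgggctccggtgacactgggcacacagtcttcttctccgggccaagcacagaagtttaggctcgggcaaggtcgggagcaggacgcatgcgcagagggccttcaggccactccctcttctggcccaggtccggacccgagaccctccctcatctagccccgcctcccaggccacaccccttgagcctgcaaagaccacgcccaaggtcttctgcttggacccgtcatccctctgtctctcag
Acadvl (chr11:70015429-70015678, - strand): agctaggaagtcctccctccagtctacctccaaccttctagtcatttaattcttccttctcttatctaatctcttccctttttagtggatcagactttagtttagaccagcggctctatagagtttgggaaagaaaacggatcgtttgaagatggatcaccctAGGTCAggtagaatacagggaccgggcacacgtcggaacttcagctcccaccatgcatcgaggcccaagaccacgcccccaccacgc
Cpt1a (chr19:3323051-3323300, + strand): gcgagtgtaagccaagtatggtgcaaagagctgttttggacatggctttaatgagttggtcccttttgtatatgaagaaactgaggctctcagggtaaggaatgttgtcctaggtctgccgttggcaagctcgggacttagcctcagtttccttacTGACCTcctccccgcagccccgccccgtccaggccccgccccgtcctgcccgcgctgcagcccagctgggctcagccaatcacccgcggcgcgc
Ehhadh (chr16:21787835-21788084, - strand): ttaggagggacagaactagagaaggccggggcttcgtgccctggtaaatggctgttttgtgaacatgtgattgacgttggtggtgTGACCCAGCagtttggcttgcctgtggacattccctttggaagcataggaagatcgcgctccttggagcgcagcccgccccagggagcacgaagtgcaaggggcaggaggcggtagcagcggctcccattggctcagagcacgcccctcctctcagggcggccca

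Counted from the start, the hexamers began at -249, -87 and -94 in Acadm, Acadvl and Cpt1a, and the antioxidant core began at -165 in Ehhadh. Of these 4 genes, Acadm followed its own array order in all 3 groups by construction, and the other 3 in 1 or 2 groups. Limma called 0 of the 4 with either siRNA, where 9.49% (siKeap1-1) and 6.60% (siKeap1-2) of all genes were called. Hadha and Hadhb start 272 bases apart on opposite strands, and their windows hold none of the 3 motifs. A match describes these letters only.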

How the data were processed

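Gene expression was measured in liver RNA on 24 Affymetrix arrays, 1 per mouse, in 3 groups of 8 taken from the labels. The deposited values are log2 signals per probe set that the authors made with RMA (background correction, quantile normalization and summary of probes), with no version stated in the labels or methods. RMA brings all arrays to a common distribution, so values are relative to the other genes of an array. Median log2 signals per array lay between 5.84 and 5.96. Of 45101 probe sets, 64 control probe sets were left out and 45037 were tested, with no filter on low signals. The platform annotation names 1 gene for 34945 of them, several for 932 and none for 9160.

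Group means were compared in 1 model of all 3 groups by limma 3.58.1 (lmFit, eBayes; R 4.3.3) and its p-values were adjusted (Benjamini-Hochberg) over all tested probe sets, with calls at an adjusted p under 0.05. Keap1 and the 18S probe set were tested by exact permutation. The procedure was tested on simulated data. The labels do not say whether mice of a group shared a cage, and each array is taken as 1 mouse.

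The members and the lists of other genes were chosen with earlier results of these data known. Full values are given for Ppara, the members past the threshold and the 6 members with the largest within-group SD. From the lists of other genes, up to 6 and 4 genes with the smallest adjusted p are named, and the 4 feeding response genes with the largest SD. Alternatives covered normalization, centring, moderation and array weights, dim probe sets, which arrays and controls entered the model, covariates, the replicate number as a block, probe sets of a gene and thresholds. Plots used matplotlib 3.10.9 and Python 3.11.15. Feeding state was not used, and proteins were not analysed here.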

Additional observations from a re-analysis of the deposited data

Results flagged for a closer look

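Over 108 groups of member values (36 members in 3 siRNA groups), 4 held an array far from the rest by Dixon's ratio at the 95% level, and chance alone gives about 1 in 20 groups. Ppara was at 11.94 on siKeap1-1 replicate 4, the highest of its group, and the next array was at 11.65. This is the array on which 36 of 36 members were above their group median. Ehhadh was at 11.67 on siKeap1-1 replicate 3, the lowest of its group, and the next array was at 12.24. Fgf21 was at 8.10 on siControl replicate 2, the highest of its group, and the next was at 7.08. Hadhb was at 13.06 on siKeap1-2 replicate 7, the lowest of its group, and the next was at 13.35.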

How the results depend on the processing

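The number of members called higher stayed at 0 in all settings and comparisons except with the first residual component as a covariate, which called 1 member (Hadha) higher with siKeap1-2, and no fold change of a called member changed sign. The number called lower with siKeap1-1, which was 1, became 2 when the arrays were quantile normalized again (4.68% of all genes called lower) or centred on their median (5.17%) or when the probe sets of a gene were averaged (4.35%). It became 3 without dim probe sets (7.81%, so 3 of 36 is near the background), 5 with trend and robust moderation (5.11% of all genes) and 7 with the first residual component (6.52%). It became 0 with siControl replicates 1 to 3 as controls, where 0.77% of all genes were called lower. With the 18S covariate it stayed at 1 (0.731% of all genes), but the gene was Bdh1 and not Abcd2. With siKeap1-2, the number, which was 1, became 2 with centred arrays (4.24%), without dim probe sets (6.54%), with array weights (4.82%), with the first residual component (5.69%) or with adjustment over the brightest probe sets (4.02%). It became 4 with trend and robust moderation (3.97% of all genes), and 0 with the 18S covariate (0.126%) or with siControl replicates 1 to 3 as controls (0.154%). When probe sets were averaged, Abcd2 was at -1.18 (limma adjusted p = 0.00536) and -0.81 (adjusted p = 0.0674), and Etfa was the gene called with siKeap1-2. The added genes were Etfa, Bdh1, Acaa2 and Acaa1b in these settings, apart from the first residual component. Leaving out single arrays was chosen after seeing the data, and shares over all genes are not at hand for these runs. The number called lower then ranged from 1 to 3 with siKeap1-1 (3 without siKeap1-1 replicate 4, 2 without replicate 7 of siKeap1-1 or of siKeap1-2) and from 0 to 2 with siKeap1-2. It was 0, with Abcd2 at adjusted p from 0.0546 to 0.0599, without siKeap1-2 replicate 3, 4, 6 or 7 or siControl replicate 7 or 8, and 2 without siKeap1-1 replicate 3, siKeap1-2 replicate 5 or siControl replicate 1. Of 24 pairs of arrays with the same replicate number, 9 correlated over 0.1 (range -0.171 to 0.28) and 4 correlated best with their own number. The numbers were therefore not taken to pair the mice. The replicate block left the counts at 1 and 1, where 4.85% and 3.68% of all genes were called lower. The cause of these shifts was not tested.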
